A study of Mus musculus with 2 samples.

Results

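The genes described here are 43 autophagy and mitophagy genes, chosen as a fixed list of symbols that covers initiation, membrane expansion, conjugation, cargo receptors, mitophagy and lysosomal regulation. All 43 were found among the 23284 symbols of the expression tables. Expression was measured by RNA-seq in LSK CD48– cells, the lineage-negative Sca1+ c-Kit high CD48-negative fraction that contains HSCs, from E14.5 mouse fetal liver (FL). There was 1 library from WT fetuses and 1 library from ESAM-null fetuses, which lack the endothelial cell-selective adhesion molecule ESAM in all tissues as a homozygous germline knockout. The sources used here do not state how many fetuses and cells were pooled into a library. The sample labels describe sorting into methylcellulose medium and incubation, whereas the study's account of the RNA-seq names LSK CD48– FL cells and no culture, so whether a culture step came first is not settled. The comparison was made to learn which genes differ in HSCs of the ESAM-null FL, where blood cell development fails.

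Macroautophagy encloses cytoplasm in a double membrane, the phagophore, which closes into an autophagosome and fuses with the lysosome. The ULK kinase complex starts the process, a class III PI3-kinase marks the membrane with a phosphoinositide, and a pair of ubiquitin-like conjugation reactions attaches ATG8 proteins of the LC3 and GABARAP groups to it. Cargo receptors and mitophagy receptors bind ATG8 proteins and bring in selected material such as damaged mitochondria. In the blood system, autophagy is known for the upkeep of HSCs and for clearing mitochondria from maturing red cells.

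Values are FPKM, fragment counts scaled for transcript length and library size, so levels of different genes can be compared within a library. Where values are paired, WT comes first. Because each genotype has 1 library, differences lack a replicate check and were not tested. Each ratio of ESAM-null to WT is given with a 95% counting interval from approximate reads, which covers counting error only and not variation between fetuses. A gene counted as measured at 1 FPKM or more in at least 1 library, and as lower or higher when its ratio was at most 0.5 or at least 2.

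Esam itself was at 117.6 FPKM for WT and 12.1 FPKM for ESAM-null. The libraries held about 9866623 (WT) and 12057177 (ESAM-null) reads assigned to genes, with 14305 and 13039 genes above 0. Of 10 stem and progenitor markers, among them Kit, Ly6a and Procr, all 10 were measured and none was lower or higher by the 2-fold rule, with a summed level of 841 FPKM for WT and 808 FPKM for ESAM-null. Cd48, whose product was absent from the sorted surface, was at 16.6 and 22.01 FPKM. The summed level of 12 erythroid markers was 489 FPKM for WT and 211 FPKM for ESAM-null, with 5 lower and 3 higher. Without the most abundant, Hba-a2 (373 and 57.1 FPKM), the other 11 summed to 116 and 153 FPKM. The direction of the sum thus rested on this globin gene. Much of the remaining sum was another globin gene, Hbb-b1, at 78.8 and 114 FPKM. Besides Hba-a2, the lower markers were Alas2 (8.08 and 0.282 FPKM), Slc4a1 (6.08 and 0.471 FPKM), Epb4.2 and Trim10. Epb4.2 and Trim10 were at 0 for ESAM-null. The higher markers were Ermap, Tspo2 and Cldn13. Of 13 macrophage markers, 9 were measured, with 3 lower and 1 higher. All 13 summed to 366 and 366 FPKM, and to 30.9 and 32.5 FPKM without Lyz2. Emr1, C1qa, Vcam1, Marco and Cd5l had under 3 FPKM for WT and were at 0 for ESAM-null, while Csf1r, Cd68, C1qc and Fcgr1 had ratios above 1. Of 9 hepatocyte markers, 5 were measured, with 2 lower and 1 higher. All 9 summed to 42.4 and 37.1 FPKM. Without the most abundant, Trf (32.5 and 22.8 FPKM), the other 8 summed to 9.88 and 14.2 FPKM, the opposite direction. Alb and Ttr, low for WT at 1.04 and 0.628 FPKM, were at 0 for ESAM-null, while Apoa1 had 1.09 and 7.52 FPKM and Afp 4.35 and 6.69 FPKM. The part of these markers in the values of autophagy genes was not tested. In bulk samples of this kind, fewer cells of a type and less RNA per cell cannot be told apart.

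Most of the autophagy genes were expressed at similar levels in both libraries. Of the 43 genes, 42 were measured, and the mitophagy ligase gene Park2 was not. Ulk1, Ambra1, Atg9a, Atg4c, Optn and Tfe3 had ESAM-null levels lower by 2-fold or more, which is 6 of 42 or 14.3%, beside 12.8% of all 12066 measured genes. None was at least 2-fold higher, beside 7.42% of all measured genes. The share of lower members was thus near that of all genes, but the levels differed. None of the measured members had a mean under 1 FPKM, where 57.2% of all measured genes were lower. Shares by level are given below, and the part of level in the share of members was not tested. The median log2 ratio of the 42 was -0.08, beside -0.00 for all measured genes. Within 1.5-fold lay 31 of the 42, beside 7339 of all 12066 measured genes. The ratio was above 1 for 19 members and below 1 for 23. The summed level of the 42 was 1649 FPKM for WT and 1736 FPKM for ESAM-null.

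These ratios depend on the scale of the libraries, since FPKM over all genes summed to 751784 in WT and 911736 in ESAM-null. When both libraries were rescaled to a total of 1000000, every log2 ratio moved by -0.28, so that 10 members had a ratio above 1 and 32 below 1. The median of the members was then -0.36, beside -0.28 for all measured genes. On that scale the calls over all genes were 2210 lower and 657 higher, or 77.1% lower, beside 63.2% lower as deposited. Statements below on members with ratios above 1 refer to the deposited scale.

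**Figure D1:**
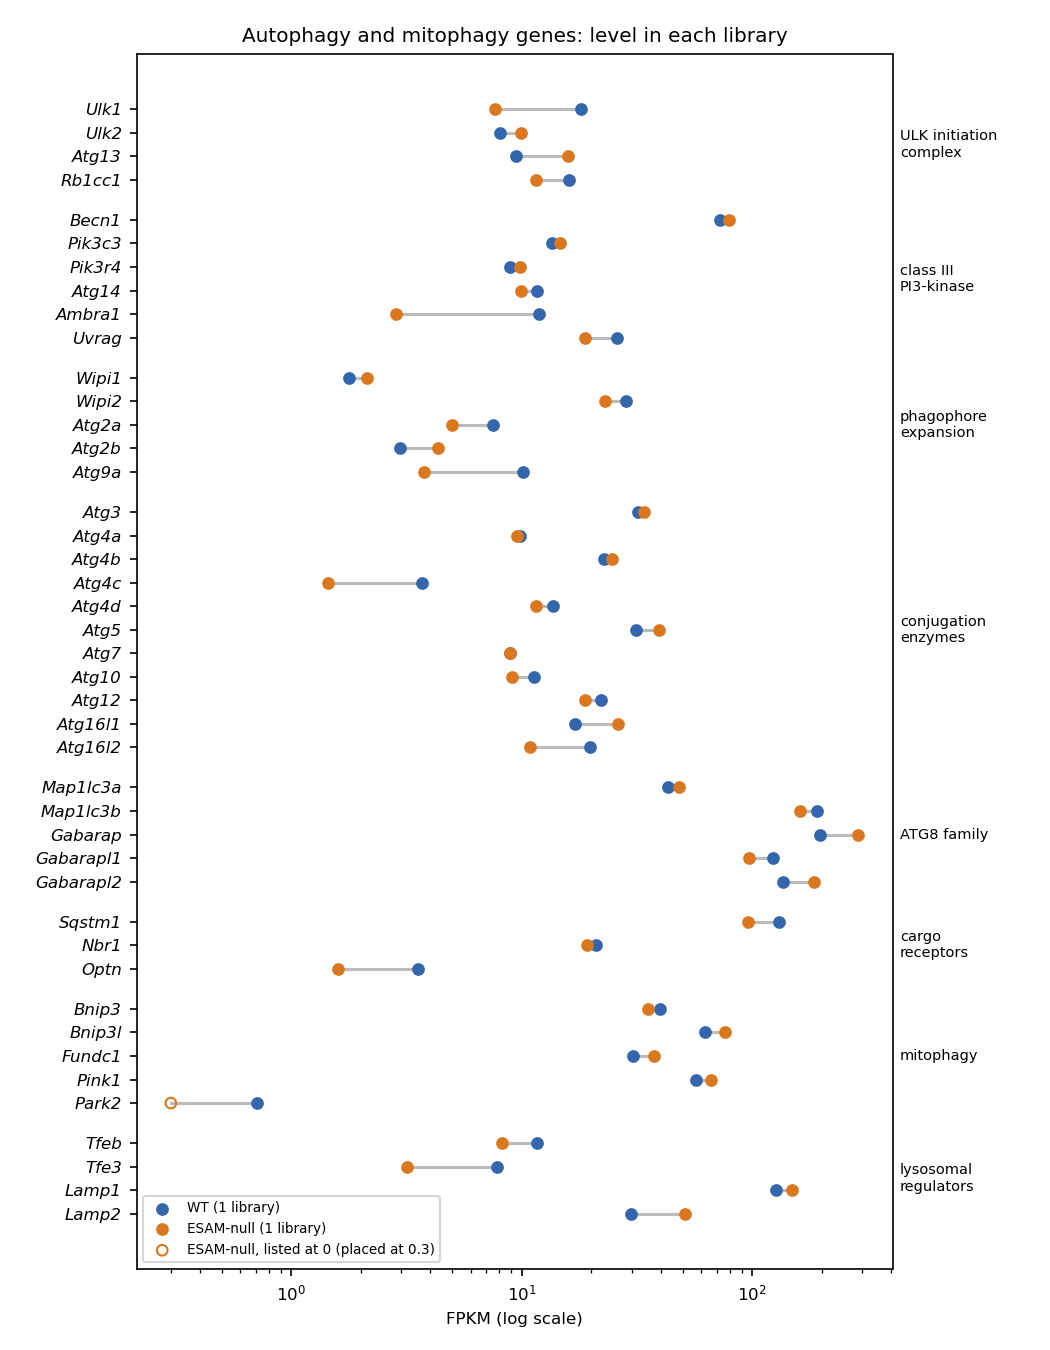
Level of each of the 43 genes in FPKM on a log axis, grouped by role, with 1 point for the WT library and 1 for the ESAM-null library joined by a line. Most pairs of points lie close together, Ambra1 has the longest line among measured members, and Park2, listed at 0 in ESAM-null, is drawn as an open circle at the left.

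The members spanned a wide range of levels. In WT the lowest was Park2 at 0.708 FPKM, the median 18.1 FPKM and the highest Gabarap at 197 FPKM. In ESAM-null the lowest was 0, the median 15.8 FPKM and the highest again Gabarap, at 288 FPKM. The number of members under 10 FPKM was 12 in WT and 17 in ESAM-null. The 6 lower members were among the moderate to low ones, from 3.56 FPKM for Optn to 18.1 FPKM for Ulk1 in WT. None of the 15 members with a mean of 30 FPKM or more was lower or higher by the 2-fold rule. Of all genes at means of 30 to 100 FPKM, 0.723% were lower and 1.45% higher, and 1.73% and 1.58% at 100 FPKM or more.

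In the ULK initiation complex, 1 of 4 members was lower and the other three were not. Ulk1, the kinase that starts autophagy, lies on chromosome 5 of mm10 from 110784488 to 110810097, minus strand. It had 18.1 FPKM for WT and 7.68 FPKM for ESAM-null, from about 848 and 392 reads. This was 2.36-fold lower, with a counting interval of 2.08 to 2.66-fold. At its level, a mean of 10 to 30 FPKM, 5.30% of all genes were lower. Its paralog Ulk2 went from 8.02 to 9.89 FPKM, so that Ulk1 made up 69.3% of the pair in WT and 43.7% in ESAM-null. Ulk1 was thus the more abundant kinase transcript in WT and Ulk2 in ESAM-null.

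Among the partners of the kinase, Atg13, the adaptor that is a target of mTORC1 and ULK1, had 9.48 and 15.8 FPKM, a ratio of 1.67 (counting interval 1.45 to 1.93). Rb1cc1, which encodes the scaffold FIP200, had 16.0 and 11.6 FPKM. The members of this complex therefore differed in opposite directions, and their median log2 ratio was -0.08.

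The class III PI3-kinase group held the largest fold among measured members. Ambra1, which encodes a regulator of Beclin 1 that is also a substrate receptor of a ubiquitin ligase, had 11.9 FPKM for WT and 2.84 FPKM for ESAM-null, from about 558 and 144 reads. It was 4.198-fold lower, with a counting interval of 3.50 to 5.10-fold, and 16.5% of all genes at a mean of 3 to 10 FPKM were lower. Ambra1 lies on chromosome 2 from 91730134 to 91918849, plus strand. Atg13 is on the same chromosome from 91674618 to 91710576, minus strand, so that these members with opposite differences start on facing sides of the same stretch.

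The kinase and its core partners were close to equal. Pik3c3, the catalytic subunit VPS34, had 13.5 and 14.7 FPKM, and Pik3r4, its regulatory subunit VPS15, had 8.91 and 9.79 FPKM. Becn1, which encodes Beclin 1, had 72.6 and 79.0 FPKM, although 43.9% of its exon bases also lie in Cntd1 on the other strand and reads of the genes may not have been separated. Of the alternative subunits, Atg14, which directs the complex to autophagosome formation, had 11.6 and 9.88 FPKM, and Uvrag, which directs it to endosomes, had 25.8 and 18.8 FPKM. Both of these alternative subunits had a ratio below 1 and neither passed the 2-fold rule.

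In the group for phagophore expansion, Atg9a was lower and the other four were not. Atg9a encodes the multispanning lipid scramblase of the seed vesicles and lies on chromosome 1 from 75180860 to 75192196, minus strand. It had 10.1 FPKM for WT and 3.78 FPKM for ESAM-null, from about 362 and 148 reads, and was 2.66-fold lower (counting interval 2.19 to 3.24-fold). Of its exon bases, 31.8% are also annotated to the transcript Gm29253 on the same strand, so part of its reads could have been assigned there. As for Ambra1, the share of genes lower at its level was 16.5%.

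The lipid transfer proteins ATG2A and ATG2B were again a pair with unlike ratios. Atg2a had 7.48 and 4.97 FPKM and Atg2b had 2.97 and 4.34 FPKM. The share of Atg2a in the pair was 71.6% in WT and 53.4% in ESAM-null, while their sum was 10.5 and 9.31 FPKM. Wipi2, a phosphoinositide reader that recruits the ATG16L1 complex, had 28.3 and 23.0 FPKM, and its paralog Wipi1 had 1.78 and 2.12 FPKM from few reads.

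**Figure D2:**
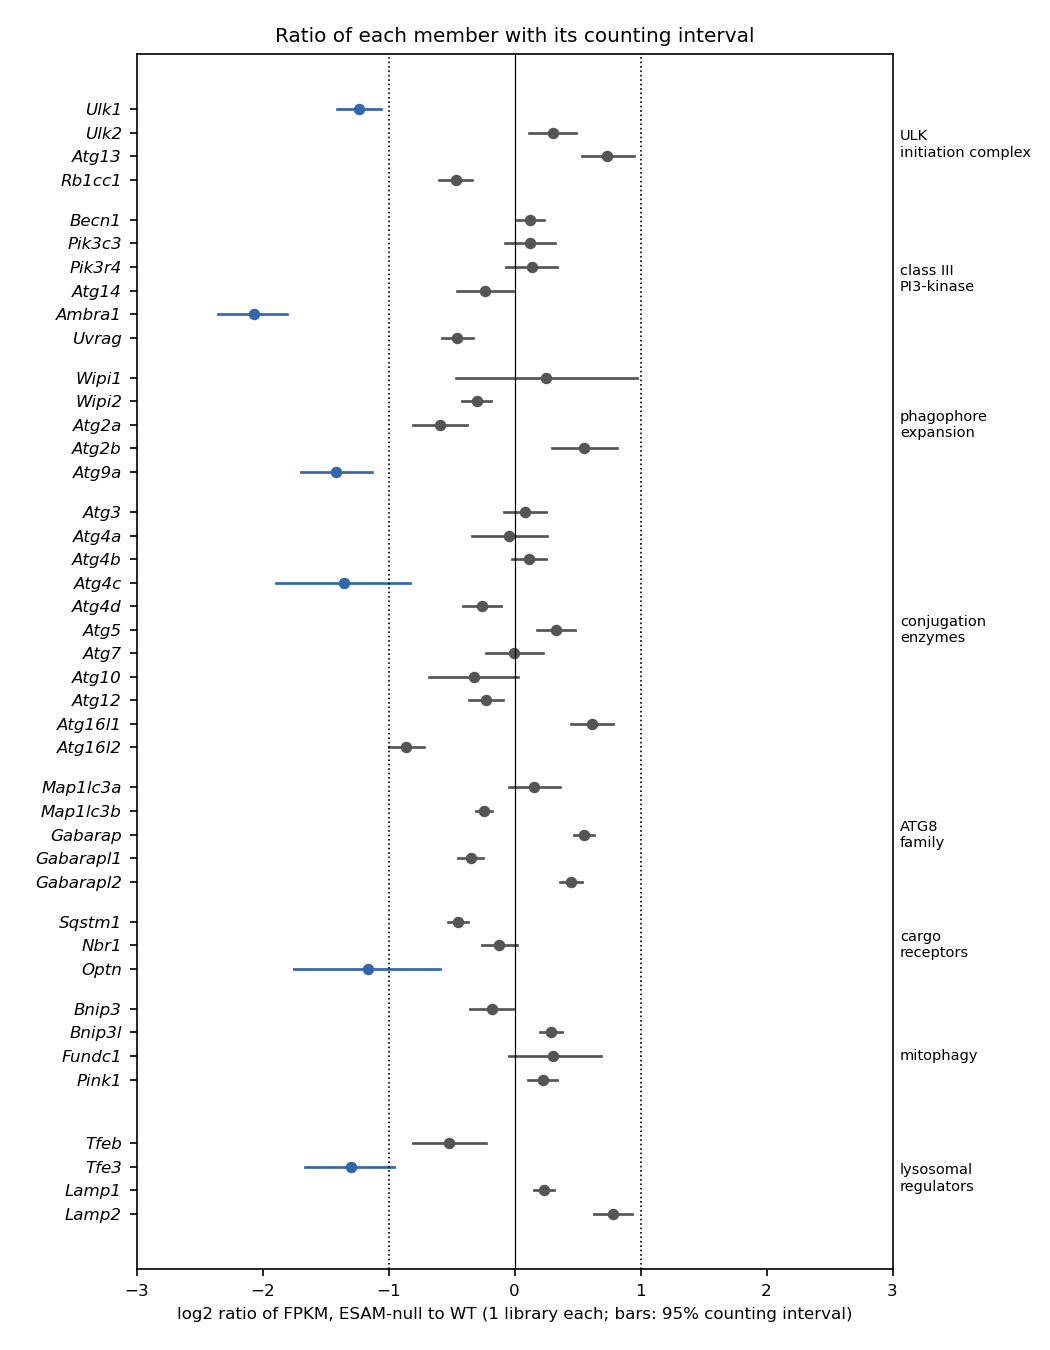
Log2 ratio of FPKM, ESAM-null to WT, for the 42 measured members by role, with bars for the 95% counting interval and dotted lines at 2-fold in each direction. The 6 members in blue lie left of the lower line, and no member lies right of the upper line.

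The conjugation enzymes were the largest group, with 11 members, and 1 of them was lower. Atg4c, a cysteine protease that trims ATG8 proteins, lies on chromosome 4 from 99193934 to 99259787, plus strand. It had 3.69 FPKM for WT and 1.45 FPKM for ESAM-null, from only about 103 and 44 reads, and was 2.55-fold lower (counting interval 1.77 to 3.71-fold). At a mean of 1 to 3 FPKM, 29.96% of all genes were lower. Atg4c was a small part of the ATG4 proteases, 7.37% of their FPKM in WT and 3.07% in ESAM-null. Atg4b, the most abundant, had 22.8 and 24.6 FPKM. Atg4d had 13.7 and 11.5 FPKM and Atg4a had 9.83 and 9.55 FPKM, so the summed level of the proteases had a ratio of 0.942.

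The enzymes that carry ATG8 and ATG12 had counting intervals that held 1 on the deposited scale. Atg7, the E1-like enzyme of both reactions, had 8.86 FPKM in each library. Atg3, the E2-like enzyme for ATG8, had 32.1 and 34.0 FPKM, and Atg10, the E2-like enzyme for ATG12, had 11.3 and 9.04 FPKM. Atg5, whose product is joined to ATG12, had 31.3 and 39.4 FPKM, a ratio of 1.26 (counting interval 1.13 to 1.40). Atg12 had 22.1 and 18.9 FPKM, a ratio of 0.854 (counting interval 0.778 to 0.936).

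The ATG16L pair kept its sum on the deposited scale and changed its order. Atg16l1, whose product sets the site of ATG8 lipidation, had 17.0 FPKM for WT and 26.1 FPKM for ESAM-null, a ratio of 1.53 (counting interval 1.36 to 1.72). Its paralog Atg16l2 had 19.8 and 10.9 FPKM, from about 1159 and 695 reads. It was 1.81-fold lower (counting interval 1.650 to 1.995-fold) and was the member nearest to the 2-fold limit from outside. Atg16l2 lies on chromosome 7 from 101263034 to 101302251, minus strand. The pair summed to 36.8 and 37.0 FPKM, and Atg16l1 held 46.2% of it in WT and 70.5% in ESAM-null. On the rescaled totals the sum of the pair had a ratio of 0.828. The transcript length used was 6459 bases for Atg16l2 and 3102 bases for Atg16l1. Ratios of all measured genes differed with transcript length, as given below.

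**Figure D3:**
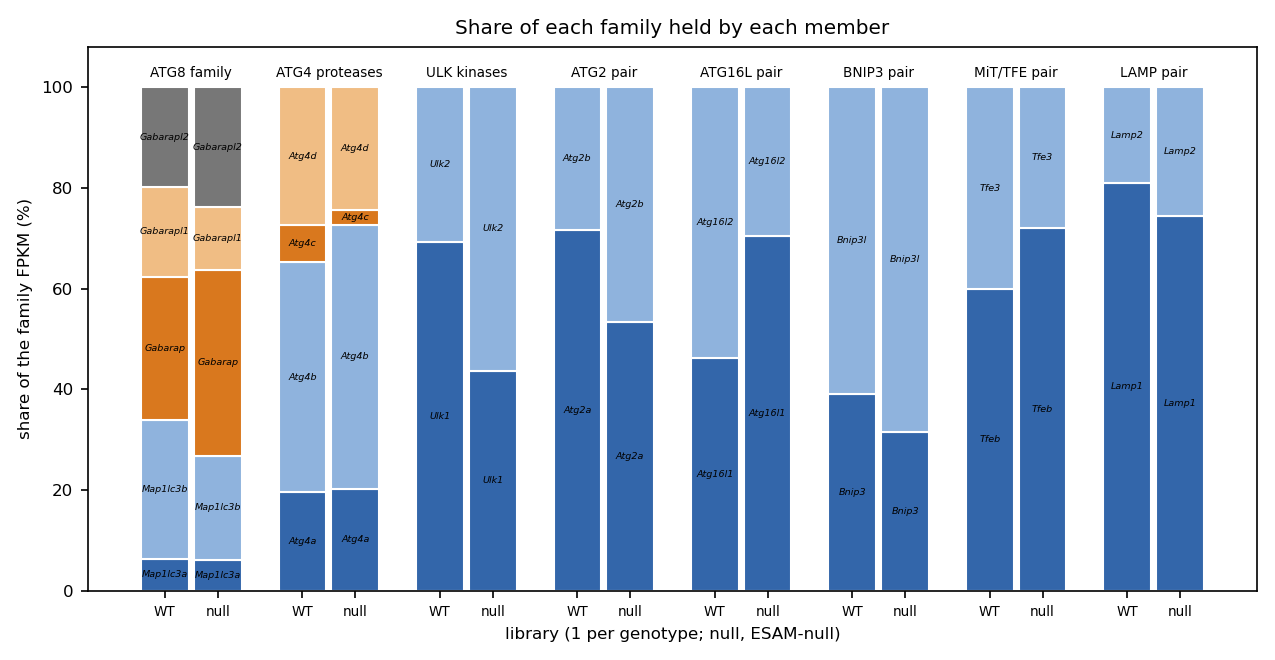
Share of the summed FPKM of each family held by each member, as stacked bars for the WT and ESAM-null library. Ulk1 held 69.3% of the ULK kinases for WT and 43.7% for ESAM-null, and Atg16l1 held 46.2% and 70.5% of its pair.

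The ATG8 family was the most abundant group, with 690.0 FPKM for WT and 780 FPKM for ESAM-null in sum. These proteins are attached to the autophagosome membrane, and none of the 5 genes was lower or higher by the 2-fold rule. At their levels, only 0.723% to 1.73% of all genes were lower and 1.45% to 1.58% higher. Gabarap had 197 FPKM for WT and 288 FPKM for ESAM-null, and Gabarapl2 had 136 and 186 FPKM. Gabarapl1 had 124 and 97.1 FPKM and Map1lc3b had 190.1 and 161 FPKM. Map1lc3a, the least abundant, had 43.2 and 48.1 FPKM.

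Within the family the GABARAP group, which acts later in autophagosome maturation and fusion, therefore held more of the sum in ESAM-null. The ratio of the GABARAP group to the LC3 pair was 1.96 in WT and 2.74 in ESAM-null, a quantity that rescaling of a library does not alter. Gabarap alone made up 28.5% and 36.9% of the family, and Map1lc3b 27.6% and 20.6%. On the rescaled totals the family sum had a ratio of 0.933, against 1.13 as deposited. Gabarap has a short transcript, and the ratios of all measured genes differed with transcript length, as given below.

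Of the 3 cargo receptors, Optn was lower and all had a ratio below 1. Sqstm1, which encodes p62, the receptor for ubiquitinated cargo that is itself degraded by autophagy, had 131 FPKM for WT and 95.9 FPKM for ESAM-null, a log2 ratio of -0.45. Nbr1, a receptor that acts with p62, had 20.9 and 19.2 FPKM. Optn, which encodes optineurin, a receptor in mitophagy and against bacteria, had 3.56 and 1.59 FPKM from only about 80 and 39 reads. It was 2.24-fold lower (counting interval 1.503 to 3.36-fold), the member nearest to the 2-fold limit from inside, at a level where 29.96% of all genes were lower. Optn lies on chromosome 2 from 5020642 to 5064051, minus strand.

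None of the mitophagy genes that were measured was lower or higher by the 2-fold rule. All of them had means of 30 to 100 FPKM, where only 0.723% of all genes were lower and 1.45% higher. Bnip3l, which encodes NIX, the outer membrane receptor that removes mitochondria from reticulocytes, had 62.5 FPKM for WT and 76.3 FPKM for ESAM-null. Its paralog Bnip3 had 39.9 and 35.2 FPKM. Bnip3l thus made up 61.0% of the pair in WT and 68.4% in ESAM-null. Fundc1, a receptor in hypoxia, had 30.3 and 37.5 FPKM, and Pink1, the kinase that marks depolarized mitochondria, had 56.9 and 66.4 FPKM. The ratios of Bnip3l, Fundc1 and Pink1 lay between 1.17 and 1.24. The pathway's ubiquitin ligase Parkin, encoded by Park2, had 0.708 FPKM for WT (about 20 reads) and was listed at 0 for ESAM-null. Its counting interval gave at least a 5.37-fold lower level, and a floor of 3 reads for ESAM-null gives 7.25-fold, but it stayed under 1 FPKM in both libraries. Pink1 was therefore expressed in both libraries while Park2 was barely detected in either.

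The lysosomal regulators comprised a pair of transcription factors and a pair of membrane glycoproteins, and these went opposite ways. Tfe3, which encodes a transcription factor of lysosome and autophagy genes, lies on chromosome X from 7762560 to 7775202, plus strand. It had 7.83 FPKM for WT and 3.18 FPKM for ESAM-null, from about 223 and 98 reads. This was 2.46-fold lower (counting interval 1.94 to 3.17-fold), where 16.5% of all genes at that level were lower. The related Tfeb had 11.7 and 8.17 FPKM, 1.43-fold lower, and the sum of both was 19.5 and 11.3 FPKM. Lamp2, whose product is needed for fusion with the lysosome, had 29.8 FPKM for WT and 51.2 FPKM for ESAM-null, from about 554 and 1033 reads. Its ratio of 1.72 (counting interval 1.54 to 1.90) was the nearest of all members to the limit for higher genes. It lies on chromosome X from 38401357 to 38456454, minus strand. Lamp1, the other major lysosomal glycoprotein, had 126 and 149 FPKM, and Lamp2 made up 19.1% of the pair in WT and 25.6% in ESAM-null.

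TFEB and TFE3 bind an E-box, CACGTG, which is the centre of the CLEAR motif TCACGTGA of lysosomal genes. Both factors had ratios below 1, and the E-box was looked for on both strands from 250 bases before to 50 bases after the start of each gene, in RefSeq promoters of GRCm38.p6. Promoters were found for 35 of the 43 members. The E-box stood in 6 of them, or 17.1%, beside 8.09% of 27025 genes, and in none of the 6 lower members. The letters CACGTG lie within every TCACGTGA, which was found in 1 member, Atg3, and in 1.12% of all genes. The stretches upstream of the start are shown because they are the members with the motif, with the E-box in capitals and read 5′ to 3′ on the strand of the gene. For Atg7 the RefSeq start lies inside the gene as GENCODE annotates it, which begins at 114643097 on chromosome 6, so the stretch belongs to an alternative start. For Atg14 the motif lay after the start and is not printed.
Atg3, chr16:45158710-45158788, plus strand: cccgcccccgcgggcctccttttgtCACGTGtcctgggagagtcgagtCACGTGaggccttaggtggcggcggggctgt
Atg5, chr10:44268300-44268338, plus strand: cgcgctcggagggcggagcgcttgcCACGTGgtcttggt
Atg7, chr6:114670939-114670994, plus strand: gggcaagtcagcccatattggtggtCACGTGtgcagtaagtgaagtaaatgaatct
Bnip3, chr7:138909584-138909639, minus strand: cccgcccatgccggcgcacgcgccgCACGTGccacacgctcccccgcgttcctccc
Lamp1, chr8:13159075-13159160, plus strand: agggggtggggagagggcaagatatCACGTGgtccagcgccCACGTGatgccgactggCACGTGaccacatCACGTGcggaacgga

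Lamp1 carried 4 copies of the E-box, a number reached in 8 of 32851 promoter windows, and Atg3 carried 2. The members with these stretches had ratios near 1, from 0.882 for Bnip3 to 1.26 for Atg5, with 1.06 for Atg3 and 1.18 for Lamp1. The match of letters is a description of the promoter and not of binding. The motif of FOXO factors, GTAAACA, which are known regulators of autophagy genes in HSCs, was on either strand in 4.05% of genes and in none of the 35 members.

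**Figure D4:**
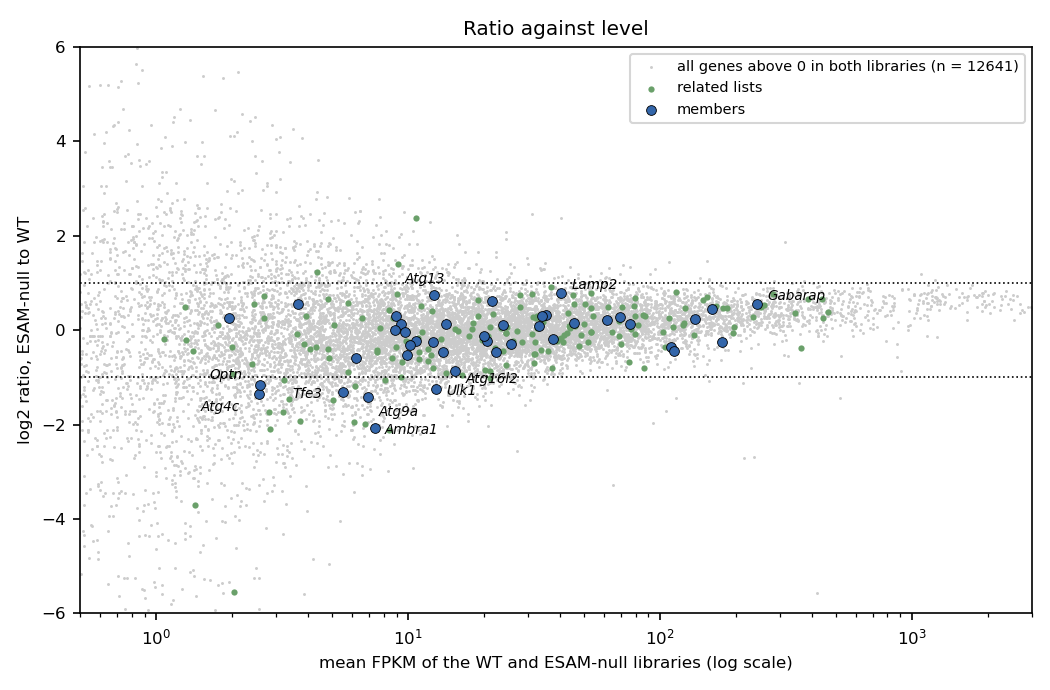
Log2 ratio, ESAM-null to WT, against the mean FPKM of both libraries on a log axis, for all genes above 0 in both libraries (grey, those within the axes), the related lists (green) and the members (blue). The grey cloud widens towards low levels, and the members below the lower dotted line lie between means of 1 and 30 FPKM.

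The spread of ratios depended on level. At a mean of 1 to 3 FPKM, 29.96% of all genes were lower and 19.7% higher, against 0.723% and 1.45% at 30 to 100 FPKM. The median log2 ratio of all genes was -0.29 at 1 to 3 FPKM and 0.36 at 100 FPKM or more. Of the members, 2 of 3 were lower at 1 to 3 FPKM, 3 of 10 at 3 to 10 FPKM, 1 of 14 at 10 to 30 FPKM and 0 of 15 above that. The counting interval lay below 1 for 19 members and above 1 for 12, and it held 1 for 11. In total, intervals away from 1 were as common among all measured genes, with 36.7% below and 36.9% above. The directions were thus nearly even among all genes, whereas more members lay below 1 than above. The median log2 ratio of all genes was itself -0.20 at 3 to 10 FPKM and -0.07 at 10 to 30 FPKM, ranges that held 10 and 14 members. The part of level in this difference was not tested.

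The ratios also moved with transcript length. The median log2 ratio of all measured genes was 0.24 for transcripts under 2000 bases and -0.27 for those of 4500 bases or more. Among members the medians were 0.16 over 7 genes and -0.30 over 13 genes in the same ranges. The 6 lower members had transcripts of 2614 to 5213 bases, and no member under 2000 bases was lower. The part of length in the values of the members was not tested.

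Outside the 43 genes, 187 further genes of the pathway in 8 lists were examined, of which 181 were measured. Of these, 16 or 8.84% were lower and 3 or 1.66% higher, with a median log2 ratio of -0.03. Both shares were below those of all measured genes, as given above, but the levels differed. None of the 181 had a mean under 1 FPKM, where 57.2% of all measured genes were lower. By level, 5 of 16 were lower at 1 to 3 FPKM, 10 of 38 at 3 to 10 FPKM and 1 of 42 at 10 to 30 FPKM. In these ranges 29.96%, 16.5% and 5.30% of all genes were lower. The part of level in the shares was not tested.

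Among 17 other core autophagy genes, 2 were lower, or 11.8%, beside 12.8% of all measured genes. Wdfy3, which encodes the scaffold ALFY, had 7.40 and 2.67 FPKM, and Tecpr1, a tether of autophagosome and lysosome, had 4.93 and 1.80 FPKM. Of the 12 measured other cargo receptors, Wdr81 was lower (8.33% of the list), at 2.66 and 0.204 FPKM. Of 28 other genes of mitophagy and mitochondrial dynamics, 2 were lower (7.14%) and 1 higher (3.57%, beside 7.42% of all measured genes). Mief2, a receptor for the fission GTPase, was lower at 9.66 and 2.53 FPKM. Opa1, the inner membrane fusion GTPase, was lower at 10.9 and 5.24 FPKM. Usp30, a deubiquitinase that opposes Parkin, was higher at 2.59 and 6.08 FPKM, a call that was lost after rescaling to equal totals or with a pseudocount of 1 FPKM. These few lower genes lay between means of 1 and 10 FPKM like most lower members.

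Upstream of ULK1, 3 of 34 measured nutrient and energy sensing genes were lower and none was higher. Depdc5, of the GATOR1 complex that restrains mTORC1, had 4.57 FPKM for WT and 1.06 FPKM for ESAM-null. Deptor, an inhibitor of mTOR, had 10.7 and 2.72 FPKM. The third was Mtor, the kinase that holds ULK1 inactive when nutrients are plentiful, at 4.31 and 1.29 FPKM, and it was named after its values were seen. The 3 were 8.82% of the list, beside 12.8% of all measured genes. Several other restrainers of mTORC1 on the list, also named after their values were seen, were not 2-fold lower. Ratios were below 1 for Akt1s1 (0.625), Tsc1 (0.782), Tsc2 (0.762), Nprl2 (0.957), Nprl3 (0.976), Ddit4 (0.522), Sesn1 (0.979) and Sesn3 (0.876). They were above 1 for Tbc1d7 (1.69) and Sesn2 (1.07). For measured genes of the energy sensor AMPK, ratios were 0.721 (Prkaa1), 0.820 (Prkab1), 1.07 (Prkab2), 0.574 (Prkag1) and 0.857 (Prkag2), with 0.916 for Stk11. For partners of mTOR they were 0.502 (Mlst8), 0.664 (Rptor) and 0.752 (Rictor). These too were named after their values were seen.

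Downstream, the 19 genes of autophagosome and lysosome fusion had 4 lower (21.1%, beside 12.8% of all genes) and none higher (beside 7.42%), with a median log2 ratio of -0.58. The 4 lay at means of 1 to 10 FPKM, where 16.5% to 29.96% of all genes were lower. Rilp, an effector of Rab7, had 2.24 FPKM in WT and was listed at 0 in ESAM-null. Plekhm1, which links Rab7 to the tethering complex, had 4.91 and 1.49 FPKM. The other two, named after their values were seen, were the SNARE gene Snap29 at 8.58 and 3.78 FPKM and the transport adaptor Fyco1 at 4.34 and 2.10 FPKM. The sum of the list was nonetheless larger in ESAM-null, with 996 and 1381 FPKM, so its abundant genes and its median differed in direction.

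Of 41 lysosomal enzymes and membrane proteins, 4 were lower (9.76%, beside 12.8% of all measured genes) and 1 higher (2.44%, beside 7.42%). Ctss, the protease cathepsin S of antigen-presenting cells, had 3.97 and 0.0850 FPKM from about 43 reads and 1 read, a ratio of 0.0214 (counting interval 0.000529 to 0.126). Manba, a mannosidase, had 13.6 and 3.15 FPKM. The others, named after their values were seen, were the cystine transporter Ctns at 5.90 and 1.57 FPKM and the calcium channel Mcoln1 at 28.2 and 13.9 FPKM. Lgmn, the protease legumain, was higher at 5.03 and 13.3 FPKM. Ctss is expressed in macrophages, whose markers had ratios on both sides of 1 as given above, and their part in its value was not tested.

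The subunits of the V-ATPase, the proton pump that acidifies the lysosome, were the list with the highest median, 0.29. Of 17 measured, 15 had a ratio above 1, and their sum was 1549 FPKM for WT and 2063 FPKM for ESAM-null. None was lower (beside 12.8% of all measured genes) and 1 was higher (5.88%, beside 7.42%). The higher one was Atp6v0c, the proteolipid of the membrane ring, at 3.45 and 18.03 FPKM from about 32 and 180 reads. After rescaling to equal totals the median was 0.02, beside -0.28 for all genes. Ratios of all genes were also larger at high levels and for short transcripts, with a median log2 ratio of 0.36 at means of 100 FPKM or more and 0.24 under 2000 bases, and the part of level and length in the median of this list was not tested. Of 13 measured transcriptional regulators of autophagy genes, none was lower or higher, beside 12.8% and 7.42% of all measured genes.

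**Figure D5:**
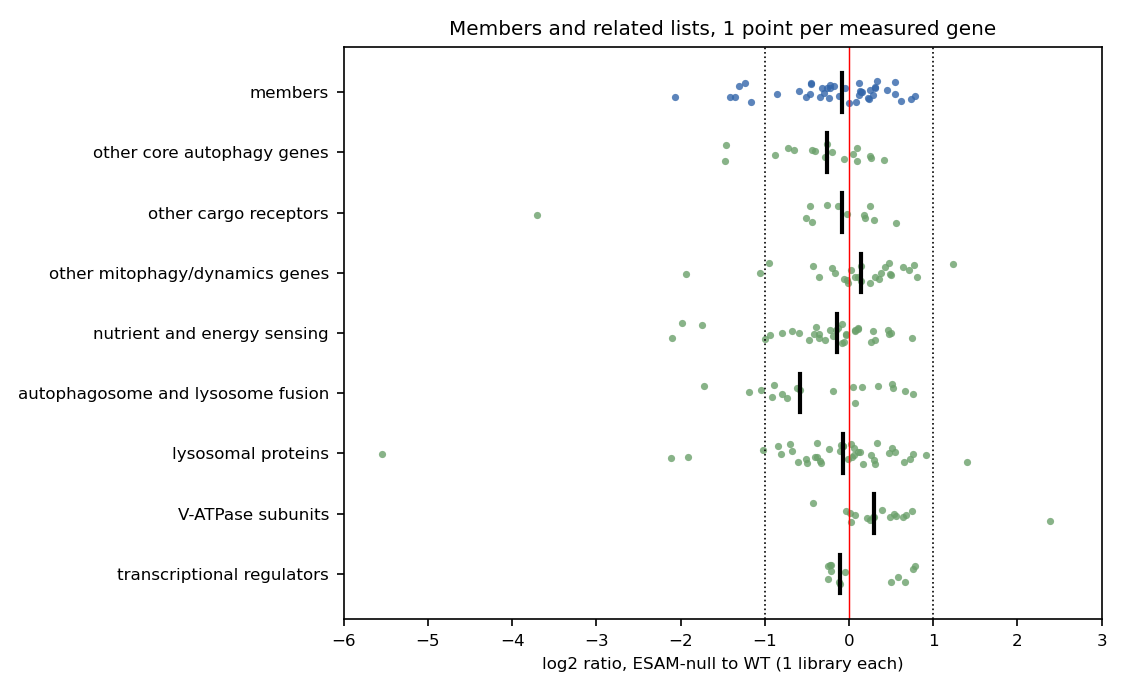
Log2 ratio, ESAM-null to WT, with 1 point for each measured gene above 0 in both libraries, for the members and 8 related lists. Black bars mark the median of each list, the red line that of all genes and dotted lines 2-fold, and the fusion list has the lowest median (-0.58) and the V-ATPase list the highest (0.29).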

How the data were processed

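RNA of sorted cells was extracted with TRIzol, amplified with the SMART-Seq v4 kit, sheared to 200 to 500 bp and read as 75 bp single ends. The authors deposited FPKM for each gene symbol in 1 table per library. Cuffnorm 2.2.1, SAMtools 0.1.19, TopHat2 2.0.13 and Bowtie2 2.2.3 are listed in the processing notes of the submitters, with mm10 as the genome. The gene annotation, strand setting, treatment of reads mapping to several places and the Cuffnorm scaling were not given in the sources used here. These choices could move values of overlapping genes and the overall level of a ratio.

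ESAM-null values were divided by WT values on the deposited FPKM scale, with no pseudocount, for genes that reached 1 FPKM in either library. Approximate reads were obtained from FPKM, GENCODE M21 transcript length (98.0% of genes) and the value of 1 read, with an assumed fragment length of 200 bp (SD 80 bp). With that value, 71.5% of 593 low genes in WT and 76.0% of 413 in ESAM-null came to whole reads within 0.05. Intervals are exact Clopper-Pearson at 95%, and PCR copies are not separate molecules. The calculation was tested on simulated data. Every member is given by value, and those past 2-fold or nearest to the limit in full. Of each related list the 2 largest ratios in each direction past 2-fold are named. Members and lists were chosen with earlier results of these data known. The alternatives were other filters, pseudocounts, thresholds, scalings and transcript lengths. The protein sequences of the ATG8 family were not used here. The tools were matplotlib 3.10.9, scipy 1.17.1, pandas 2.3.3 and numpy 2.4.6 under Python 3.11.15.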

Additional observations from a re-analysis of the deposited data

How the results depend on the processing

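No result here has a replicate check, since each genotype has 1 library, and low genes rest on few reads. The count of 6 lower members out of 42 became 7 of 43 with genes above 0 FPKM, adding Park2. After rescaling to equal totals it was 7 of 42, adding Atg16l2. It was 4 of 38 with a filter of 5 FPKM and 4 of 42 with a pseudocount of 1 FPKM, both without Atg4c and Optn. At 3-fold it was 1 (Ambra1). At 1.5-fold, 8 members were lower and 3 (Atg13, Atg16l1 and Lamp2) were higher. No member was higher under any other alternative. The median log2 ratio of the members was -0.36 after rescaling. Over all genes, 1540 lower and 895 higher (12.8% and 7.42%) became 3264 and 1343 (22.2% and 9.13%) with genes above 0 FPKM. They became 639 and 343 (6.99% and 3.75%) with a filter of 5 FPKM, and 761 and 437 (7.13% and 4.09%) with 1 FPKM in both libraries. A pseudocount of 1 gave 1066 and 568 (8.83% and 4.71%), and rescaling gave 2210 and 657 (18.3% and 5.45%). Thresholds of 1.5-fold and 3-fold gave 2632 and 2095 (21.8% and 17.4%) and 877 and 490 (7.27% and 4.06%). The fusion list, with 4 of 19 genes lower, had 8 after rescaling, 9 at 1.5-fold, 2 at 3-fold and 1 with a filter of 5 FPKM. The nutrient sensing list, with 3 of 34 genes lower, had 6 after rescaling, 8 at 1.5-fold and 1 with a filter of 5 FPKM. No paired analysis was possible because each genotype has 1 library.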
